A study of Mus musculus with 4 samples.

Results

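Inhibitory neurons of the cortex make the transmitter GABA with the enzymes that Gad1 and Gad2 encode. They are commonly sorted into classes by the peptides and proteins they carry, among them somatostatin, vasoactive intestinal peptide, cholecystokinin, neuropeptide Y and the calcium-binding protein parvalbumin. A neuropeptide gene encodes a precursor that is cut into the active peptide, stored in dense granules and released to act on receptors of neighbouring cells. The 10 genes described here were Sst, Npy, Vip, Cck, Crh, Cort, Nos1, Pvalb, Gad1 and Gad2. They were taken by gene symbol from a table of counts per transcript, in which 14 transcripts carried these symbols, and they were 10 of the 18386 genes and other features tested.

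The counts came from the cortex of 12-month-old male mice, 2 APPswe/PS1ΔE9 double transgenic mice (APP) and 2 wild type C57BL/6J mice (WT), all of C57BL/6 background. The transgenes of the APP mice are driven by the mouse prion promoter, so that their expression is not limited to 1 cell type. The study asked which RNAs differed between the cortices of these mice. Each mouse gave 1 library of ribosomal RNA-depleted total RNA, and the libraries are called APP-3, APP-4, WT-1 and WT-2. In RNA of whole tissue, fewer cells of a type and less RNA per cell cannot be told apart.

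The libraries held between 28525117 and 43881196 counts. App, the gene from which the transgene derives, stood at 2679 CPM (counts scaled to a fixed library size) in APP-3 and 2388 in APP-4, against 857 in WT-1 and 905 in WT-2. The cortical marker Slc17a7, the vesicular glutamate transporter of cortical excitatory neurons, was between 313 and 392 CPM in the 4 libraries. Genes of neighbouring brain regions were unevenly present. The summed level of 10 striatal genes was 291 CPM in APP-3 and 597 in APP-4, with 393 and 455 in the WT libraries between them. Of 12 hypothalamic genes, 6 were among the counted features. These summed to 6.03 and 9.30 CPM in APP against 1.46 and 0.987 in WT, where 3 of them had 3 or fewer counts in each library. Only transcripts with at least 10 reads were kept, so these 3 could be counted only with reads from APP. The difference between these sums was therefore set in part by that cutoff. Of the microglial genes 7 of 10 were called higher, as were 4 of 8 oligodendrocyte and 2 of 8 astrocyte genes, where 1.02% of all features were called higher.

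The stretches of DNA just before the start of these genes are shown because several peptide genes are textbook targets of cAMP signalling, through the cAMP response element TGACGTCA or its short form TGACG. RefSeq windows of 250 bases before the start (GRCm38.p6) were found for 9 of the 10 members, with 2 windows for Pvalb, and both strands were searched. Whole windows are given for Pvalb, Cck and Vip, the members with the smallest unadjusted p among those that were lower in both APP libraries. They lie at chr15:78206401-78206650 (minus strand), chr9:121495695-121495944 (minus strand) and chr10:5638968-5639217 (plus strand). Capitals mark a short form of the element or a TATA box.
Pvalb: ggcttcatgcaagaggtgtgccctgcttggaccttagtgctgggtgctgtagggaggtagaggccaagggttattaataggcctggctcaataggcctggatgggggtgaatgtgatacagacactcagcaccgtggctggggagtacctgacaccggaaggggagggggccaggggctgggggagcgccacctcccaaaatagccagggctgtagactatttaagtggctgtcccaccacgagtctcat
Cck: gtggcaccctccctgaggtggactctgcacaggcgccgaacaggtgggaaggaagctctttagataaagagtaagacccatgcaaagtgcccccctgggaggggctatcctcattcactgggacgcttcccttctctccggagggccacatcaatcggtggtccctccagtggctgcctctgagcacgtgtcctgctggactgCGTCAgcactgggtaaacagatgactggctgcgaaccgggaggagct
Vip: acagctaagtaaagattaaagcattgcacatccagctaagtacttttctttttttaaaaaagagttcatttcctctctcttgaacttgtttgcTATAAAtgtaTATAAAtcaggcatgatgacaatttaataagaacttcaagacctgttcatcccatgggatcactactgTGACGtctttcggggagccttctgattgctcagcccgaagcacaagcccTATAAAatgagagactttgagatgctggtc
The Vip window held the short form 79 bases before the start and TATAAA at 157, 147 and 30 bases. In Cck a short form on the reverse strand began 47 bases before the start. Neither was part of a full element, and the Pvalb window had no match to any motif searched.

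Stretches of 30 bases around the match are given for the other members that held one, with the element in capitals. They lie at chr16:23890874-23890903 (Sst, minus strand), chr5:117866697-117866726 (Nos1, plus strand), chr2:22622282-22622311 (Gad2, plus strand) and chr4:149126764-149126793 (Cort, minus strand).
Sst: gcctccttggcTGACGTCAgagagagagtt
Nos1: aaaccagccatgCGTCAggcttggcttcag
Gad2: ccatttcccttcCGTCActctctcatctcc
Cort: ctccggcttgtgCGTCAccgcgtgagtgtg
Among the 9 members with a window, Sst alone held the full element, 48 bases before its RefSeq start, and the full element contains the short form on both strands. The full element was present in 1.55% of all 32851 mouse windows and the short form in 17.8%. The short form was found in 6 of the 9 members with a window, namely Sst, Vip, Cck, Nos1, Gad2 and Cort. The AP-1 site TGANTCA, in 6.75% of all windows, and the EGR site GCGTGGGCG, in 0.536%, matched no member. TATAAA, in 12.4% of all windows, was in Vip and Gad1. A match is a description of the letters and not of a factor bound there. The RefSeq start of Nos1 lay 85807 bases inside the span of the gene in the annotation used for the counts, so its window belongs to an internal start. The start of Gad1 lay 9057 bases inside its span, and that of the Pvalb window not shown 2163 bases inside. Their windows belong to internal starts as well.

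Levels of different genes were compared in CPM per kilobase of transcript. In WT, Cck was the most abundant member at 133 ± 8.76 (SD, n = 2), followed by Gad1 at 87.0 ± 4.55, Npy at 56.0 ± 4.53 and Sst at 49.3 ± 2.67. Pvalb at 28.7 ± 3.74, Vip at 25.3 ± 1.08 and Gad2 at 23.2 ± 1.99 came next, and the ranges of Pvalb and Vip, and of Vip and Gad2, overlapped. Nos1 at 4.87 ± 0.299 was lower, and Crh at 1.78 ± 0.621 and Cort at 1.48 ± 0.435 were lowest and overlapped each other. All other neighbours in this order were apart in both WT libraries. In APP, Gad1 and Cck were no longer apart, since Gad1 ranged from 70.2 to 90.0 and Cck from 89.5 to 113 CPM per kilobase.

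In the comparison of APP with WT, 1 of the 10 members passed edgeR's quasi-likelihood test at an adjusted p under 0.05 over all 18386 features. That member was Nos1, which rose. Of all features, 1.14% were called in either direction, 1.02% higher and 0.12% lower in APP. Both APP libraries lay below both WT libraries for 5 members, Sst, Npy, Vip, Cck and Pvalb, where 21.4% of all features did so. They lay above for Nos1, where 21.3% of all features did so. The median log2 fold change of the 10 members was -0.13, and that of all features -0.0011. The smallest two-sided p that an exact permutation of 2 against 2 libraries allows for 1 gene is 0.333, and the p-values here rest on a spread estimated over all genes.

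**Figure D1:**
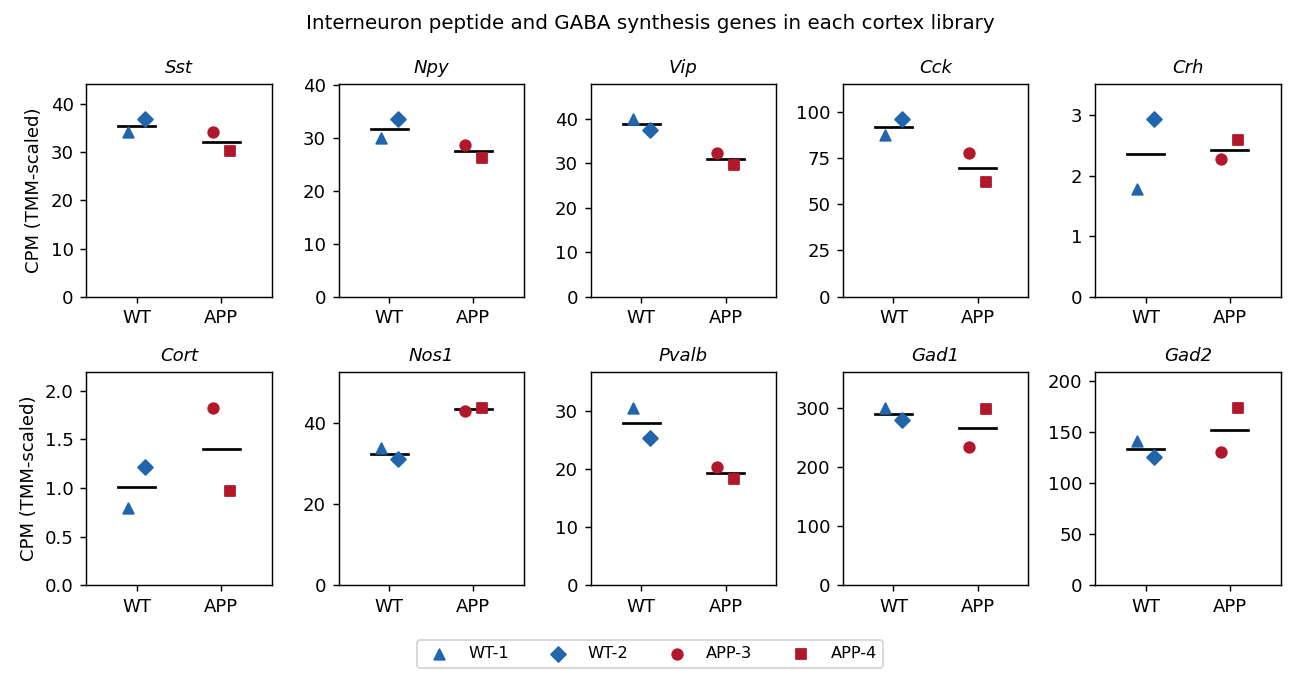
Level of each member in the 4 cortex libraries. The y axis of each panel is CPM on TMM-scaled library sizes and starts at 0, each symbol is 1 library and the bar is the mean of 2. Sst, Npy, Vip, Cck and Pvalb lay lower in both APP libraries and Nos1 higher, and the groups overlapped for Crh, Cort, Gad1 and Gad2.

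Pvalb encodes parvalbumin, a calcium buffer of fast-spiking basket and chandelier cells. It was at 20.4 and 18.3 CPM in APP-3 and APP-4 and at 30.6 and 25.4 CPM in WT-1 and WT-2, from 566 to 1345 counts. Both APP libraries were below both WT libraries, and the WT libraries differed from each other by more than the APP libraries did. The log2 fold change was -0.54 (SE 0.108, 95% interval -0.79 to -0.29), the largest decrease among the members, with an adjusted p of 0.0615 by edgeR's quasi-likelihood test. It passed with DESeq2, with the exact and the likelihood ratio test of edgeR, over protein-coding transcripts and over the deposited symbols. Without WT-1, in which Pvalb was highest, the value was -0.40 and the adjusted p 0.320.

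Other genes of parvalbumin cells were taken from a list of 6. Kcnc2, a fast potassium channel that permits high firing rates, fell from 142 and 140 CPM in WT to 112 and 109 in APP, without overlap, with a log2 fold change of -0.35 (SE 0.0621, adjusted p = 0.0365, edgeR quasi-likelihood). The call on Kcnc2 was lost with library totals in place of TMM (adjusted p = 0.0613) and without WT-1 (0.319) or WT-2 (0.300, edgeR quasi-likelihood). Hapln4, a link protein of perineuronal nets, had a log2 fold change of -0.22 with an adjusted p of 0.298. The cytochrome oxidase subunit Cox6a2 had -0.25 with an adjusted p of 0.890. Acan, the proteoglycan of perineuronal nets, had -0.11 with overlapping groups. The potassium channel Kcnc1 had 0.02 and the synaptic vesicle protein Syt2 had 0.04, so 2 of the 6 values were above 0. The list had a median of -0.16, with 1 gene called lower and 0 called higher.

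Vip encodes vasoactive intestinal peptide, which marks interneurons that mainly inhibit other interneurons. Its level was 32.2 and 29.6 CPM in APP against 39.9 and 37.6 CPM in WT. The groups did not overlap, and the gap between them exceeded the difference within either. The log2 fold change was -0.33 (SE 0.0793), or 1.26-fold lower in APP, with an adjusted p of 0.119. Its receptor Vipr1, which couples to cAMP production, fell. Vipr1 was at 20.99 and 19.6 CPM in APP and at 27.5 and 27.3 CPM in WT, with a log2 fold change of -0.43 (SE 0.0804, adjusted p = 0.0462, edgeR quasi-likelihood). This call was lost with library totals in place of TMM (adjusted p = 0.0560) and without WT-1 (0.194) or WT-2 (0.222). The second receptor, Vipr2, had 24 and 46 counts in APP and 17 and 15 in WT, with a log2 fold change of 1.51 and an adjusted p of 0.176, and was called by edgeR's exact and likelihood ratio tests.

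Cck, the precursor of cholecystokinin, is made by a class of basket cells and also by many cortical excitatory neurons. It was at 77.8 and 61.9 CPM in APP and at 87.6 and 96.2 CPM in WT. APP-4 was the lowest library and the groups did not overlap. The log2 fold change was -0.40 (SE 0.106), or 1.32-fold lower, with an adjusted p of 0.162 by edgeR's quasi-likelihood test. All 8 listed genes of excitatory cortical neurons also had a log2 fold change below 0, from -0.29 to -0.02 with a median of -0.20, and 0 of the 8 passed edgeR's quasi-likelihood test, 3 having an unadjusted p under 0.05. DESeq2 called 1 of them, Slc17a7. Their part in the values of Cck and of the other lower members was not tested.

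Npy encodes neuropeptide Y, a peptide that dampens excitability. It was at 28.7 and 26.2 CPM in APP and at 29.9 and 33.5 CPM in WT. The groups were apart, but APP-3 and WT-1 lay close together, and the log2 fold change of -0.21 (SE 0.0892) had an adjusted p of 0.405. The receptor Npy2r, a mainly presynaptic receptor for this peptide, rose. Npy2r had 8.75 and 9.20 CPM in APP and 5.17 and 4.85 CPM in WT, without overlap, and a log2 fold change of 0.84 (SE 0.135, adjusted p = 0.0269, edgeR quasi-likelihood). The call was lost without WT-1 (adjusted p = 0.0748) or without WT-2 (0.146).

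Sst encodes somatostatin, which marks interneurons that inhibit the dendrites of excitatory cells. It was at 34.1 and 30.3 CPM in APP and at 34.2 and 36.9 CPM in WT. APP-3 and WT-1 were nearly equal, and when levels were divided by the library totals without TMM the groups overlapped, which left 4 members below WT in both APP libraries. The log2 fold change was -0.14 (SE 0.0860, adjusted p = 0.577), with an interval from -0.34 to 0.06. The somatostatin receptor Sstr4 was at 6.34 and 4.23 CPM in APP and 6.46 and 7.17 CPM in WT, with a log2 fold change of -0.37 and an adjusted p of 0.516.

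Cort encodes cortistatin, a relative of somatostatin that binds the same receptors, and it was rare in these libraries. It had 53 and 30 counts in APP and 35 and 43 in WT, or 1.83, 0.969, 0.797 and 1.21 CPM. APP-3 was highest and the groups overlapped. The log2 fold change of 0.48 had a 95% interval from -0.39 to 1.35 and an adjusted p of 0.689. Crh, the precursor of corticotropin-releasing hormone, which some interneurons make, had between 66 and 104 counts per library. It was at 2.27 and 2.58 CPM in APP and at 1.78 and 2.93 CPM in WT, where the WT libraries held both the lowest and the highest value. Its log2 fold change was 0.06, with an interval from -0.55 to 0.67 and an adjusted p of 0.963.

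Nos1 encodes the neuronal nitric oxide synthase, an enzyme that is made by a small class of long-range interneurons rich in Sst and Npy and, more weakly, by other interneurons. It was at 43.0 and 43.8 CPM in APP-3 and APP-4 and at 33.8 and 31.2 CPM in WT-1 and WT-2, from 1105 to 1484 counts. The APP libraries lay close together and above both WT libraries. The log2 fold change was 0.42 (SE 0.0749, 95% interval 0.25 to 0.59), or 1.34-fold, with an adjusted p of 0.0384 by edgeR's quasi-likelihood test. The call was held with each other test, scaling and filter, with adjusted p from 0.000727 to 0.0422. It was lost when either WT library was left out, to an adjusted p of 0.0817 without WT-1 (log2 fold change 0.48) and of 0.311 without WT-2 (0.37). At a fold change of at least 1.5, which the study required as well, 0 of the members passed.

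Sst and Npy, which also mark the long-range cells that make Nos1, had log2 fold changes of the opposite sign, neither past the test. Chodl and Tacr1, further markers of these cells, had the same sign as Nos1, at 0.34 and 0.50. Neither passed (adjusted p = 0.743 and 0.516, edgeR quasi-likelihood). Chodl was at 1.21 and 0.969 CPM in APP and at 0.887 and 0.818 CPM in WT, and the groups overlapped for Tacr1. The count of Nos1 was 1.26 and 1.44 times that of Sst in the APP libraries, and 0.988 and 0.845 times in the WT libraries. Against Npy it was 1.5 and 1.67 times in APP and 1.13 and 0.931 times in WT. Both ratios of counts were higher in both APP libraries, without correction for transcript length. This follows from the levels given above, since Nos1 was higher and Sst and Npy lower in both APP libraries, and is not a further result.

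Beside the rise of Nos1, some markers of other regions were also higher in APP. Of 8 thalamic genes 0 were called by edgeR's quasi-likelihood test or DESeq2, and 3 by edgeR's exact test, with an unadjusted p under 0.05 for 5. Their median log2 fold change was 0.38, with 6 values above 0 and 2 below, Lef1 at -0.31 and Rgs16 at -0.38. The largest values were those of Tcf7l2, 0.93, and Plekhg1, 0.48 (adjusted p = 0.155 and 0.131, edgeR quasi-likelihood). The 8 genes summed to 81.3 and 76.2 CPM in APP against 63.2 and 61.2 CPM in WT. Of these sums Slc17a6 alone held 42.9 and 36.6 CPM in APP and 32.1 and 29.6 CPM in WT. All 6 counted hypothalamic genes were higher in both APP libraries. For 3 of them WT held almost no counts, so the cutoff of 10 counts could be reached only with counts from APP. The direction of these 3 was thus largely set by the cutoff, and the list cannot be compared with the share of all features. The vasopressin gene Avp, which had 18 and 102 counts in APP and 2 and 0 in WT, and Sim1, a transcription factor of hypothalamic neurons, with 29 and 34 against 2 and 0, were called. The part of these regions in the level of Nos1 was not tested.

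Nos1 was counted on 3 transcripts. The one annotated as subject to nonsense-mediated decay held 61.0% of its counts, the longest coding transcript of 10123 bases held 37.9%, and a further coding transcript held 1.12%. The decay transcript was at 26.7 and 25.1 CPM in APP and at 21.3 and 19.3 CPM in WT, with a log2 fold change of 0.35 and an adjusted p of 0.131 over all transcripts. The long coding transcript was at 16.3 and 17.8 CPM in APP and at 12.1 and 11.6 CPM in WT, with a log2 fold change of 0.53 (SE 0.110, adjusted p = 0.0272, edgeR quasi-likelihood). Both were higher in both APP libraries. Of 37539 transcripts tested singly, 1.06% were called. How reads shared by these transcripts were counted is not given in the sources used here, so the split between them is uncertain. An antisense gene overlaps Nos1 in the annotation and another overlaps Gad1, neither had counts of its own, and whether the counting used strand is not given in the sources used here.

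**Figure D2:**
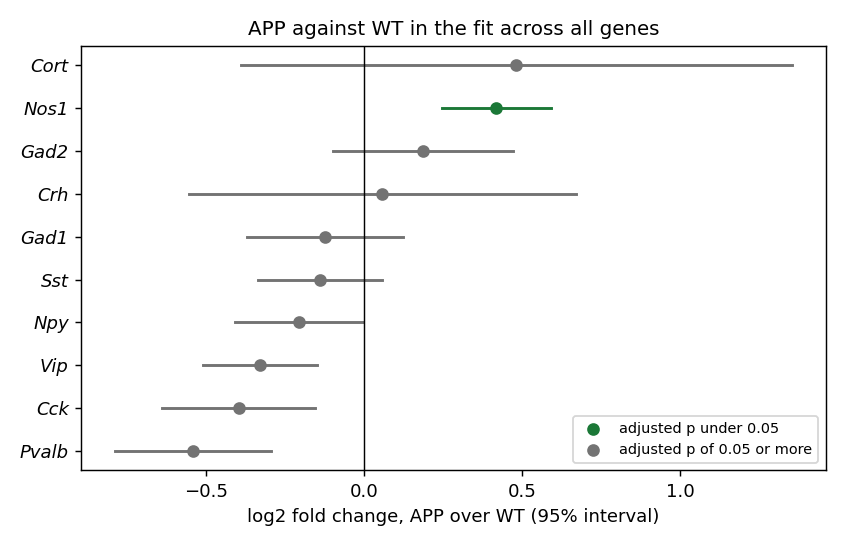
Log2 fold change of APP over WT for each member, sorted by size. Points are estimates from edgeR's fit across all genes, lines are 95% intervals, and green marks an adjusted p under 0.05. Nos1 is the 1 green point, at 0.42, and Pvalb has the lowest value, at -0.54.

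The genes most like Nos1 across the 4 libraries were sought by the distance between log2 CPM centred on each gene's mean, among 14666 genes of at least 1 CPM on average. Gm17655, Cnn3 and Gm7854 were nearest, at distances of 0.0296, 0.0363 and 0.0371. Cnn3, which encodes an actin-binding calponin, was at 43.6 and 43.4 CPM in APP and at 34.1 and 31.9 CPM in WT. Within a distance of 0.1 there were 49 genes, these 3 included, so this pattern of 2 high and 2 low libraries was not particular to Nos1.

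Gad1 encodes the GABA-synthesising enzyme of the cell body and Gad2 the form concentrated at nerve terminals. Gad1 was at 234 and 299 CPM in APP and at 301 and 280 CPM in WT, with a log2 fold change of -0.12 (SE 0.108, adjusted p = 0.729, edgeR quasi-likelihood). Gad2 was at 130 and 174 CPM in APP and at 142 and 125 CPM in WT, with a log2 fold change of 0.19 (SE 0.125, adjusted p = 0.615). The groups overlapped for both genes, and the APP libraries differed from each other by more than the WT libraries did. APP-3, with the lower Gad1 and Gad2 of the APP pair, had the lowest summed striatal level of the 4 libraries, 291 CPM, and APP-4 the highest, 597 CPM. The WT pair ran the other way. WT-2 had the higher striatal sum, 455 against 393 CPM in WT-1, and the lower Gad1 and Gad2. Most striatal neurons make GABA, and the part of striatal tissue in these values was not tested.

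**Figure D3:**
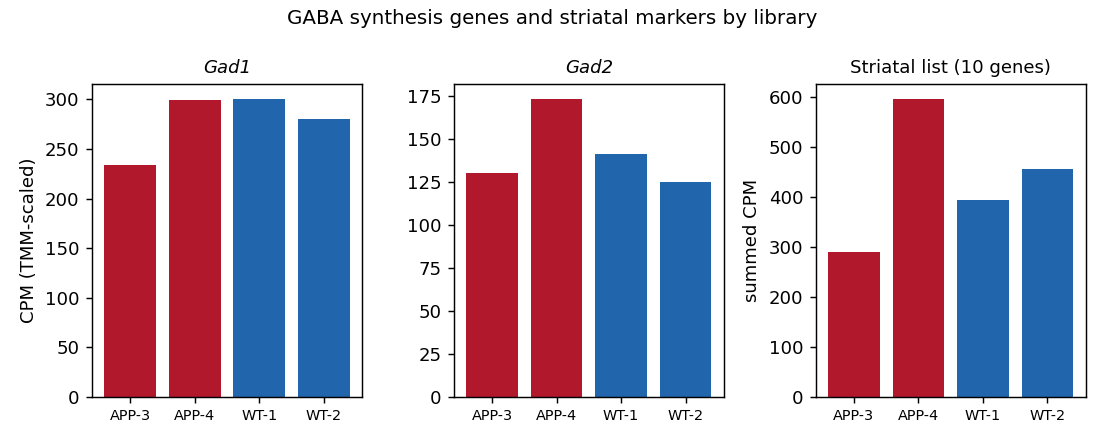
Gad1, Gad2 and the summed level of 10 striatal genes in each library. Bars are single libraries in CPM on TMM-scaled library sizes, red for APP and blue for WT, and axes start at 0. In all 3 panels APP-3 is below APP-4, with 234 against 299 for Gad1, 130 against 174 for Gad2 and 291 against 597 for the striatal genes. WT-2 is above WT-1 for the striatal genes and below it for Gad1 and Gad2.

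The count of Gad1 was 1.799 and 1.72 times that of Gad2 in the APP libraries and 2.13 and 2.23 times in the WT libraries. The ratio was thus lower in both APP libraries, although neither gene passed the test. It follows from the levels given above, was not itself tested and is not a further result. Of the Gad1 counts 98.3% were on the main coding transcript, 0.992% on one with a retained intron and 0.750% on a shorter coding transcript. Of 7 genes for the transport and breakdown of GABA, 0 passed any of edgeR's 3 tests or DESeq2, and 1 had an unadjusted p under 0.05. Their median log2 fold change was 0.01. Slc6a11, a GABA transporter of astrocytes and the gene with that p, had 0.31 with an adjusted p of 0.247. Slc6a13, another GABA transporter, had -0.26 with an adjusted p of 0.687.

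Calls among the members depended on the test and on the libraries. edgeR's exact test called 4 members, Nos1, Pvalb, Cck and Vip, where it called 3.03% of all features, and its likelihood ratio test called the same 4 where it called 3.26%. DESeq2 called 3, Nos1, Pvalb and Cck, against 1.84% of all features. Sums over protein-coding transcripts, with 1.94% of features called, and sums by deposited symbol, with 1.32%, each called Nos1 and Pvalb.

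Leaving out a library moved the calls further. Without APP-3, 5 members were called, Gad2 among them, where 9.29% of all features were, and Gad2 then had a log2 fold change of 0.38. Without APP-4, 4 were called, Gad1 among them at -0.31, where 6.52% of features were. Without WT-1, 0 members and 0.879% of features were called by edgeR's quasi-likelihood test, although 5 members had an unadjusted p under 0.05. Without WT-2, Pvalb alone was called, and 0.740% of features. In each of these fits the remaining library of a group was assumed to vary like the other group.

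Beyond the members, 8 lists of genes that act with them held 84 genes, of which 83 were tested. Of these, 2 were called higher and 2 lower, where 1.02% and 0.12% of all features were. Among 15 peptide receptors and binding proteins Npy2r was called higher and Vipr1 lower, and the median was -0.20. Among 12 surface and calcium-binding genes of interneurons Calb2, which encodes calretinin and is often found in Vip cells, was called higher. Calb2 was at 9.03 and 11.6 CPM in APP and at 4.96 and 4.85 CPM in WT, without overlap, with a log2 fold change of 1.07 (SE 0.158, adjusted p = 0.0176, edgeR quasi-likelihood). The call was kept without any 1 of the libraries, and its sign was opposite to that of Vip, which did not pass. In the same list 8 of 12 values were below 0, where 9241 of 18386 features were, with a median of -0.12. In both APP libraries 6 of its genes were lower, against 21.4% of all features. Lamp5, Cnr1 and Erbb4, at -0.26, -0.22 and -0.19, had an unadjusted p under 0.05 and were not called. Pthlh, a parathyroid hormone-like peptide, had -0.62 with an adjusted p of 0.446. The substance P receptor Tacr1 had 0.50 with an adjusted p of 0.516.

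Genes of peptide processing and granules formed a list of 11 with a median of -0.15. edgeR's quasi-likelihood test called 0 of them and gave 4 an unadjusted p under 0.05. Pcsk1, a convertase that cleaves many precursors, was at 59.8 and 59.4 CPM in APP against 75.2 and 74.7 CPM in WT. Its log2 fold change was -0.33 (SE 0.0639, adjusted p = 0.0540). Vgf, a granule protein, was at 47.3 and 48.2 CPM against 58.9 and 60.7 CPM, with a log2 fold change of -0.33 (SE 0.0664, adjusted p = 0.0655). Both were lower in both APP libraries, missed the threshold here and were called by DESeq2 and edgeR's exact and likelihood ratio tests.

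The remaining lists held 0 genes called by edgeR's quasi-likelihood test. Of 9 other neuropeptides, with a median of -0.07, 0 had an unadjusted p under 0.05. The tachykinin precursor Tac1 had 0.42 with an adjusted p of 0.488, and Adcyap1, the precursor of PACAP, had -0.36 with an adjusted p of 0.464. Of 8 nitric oxide signalling genes, with a median of -0.15, 6 were lower in both APP libraries, against 21.4% of all features. None of the 8 was called by edgeR's exact or likelihood ratio test or by DESeq2, and 3 had an unadjusted p under 0.05. Among them the phosphodiesterase Pde5a had -0.30 with an adjusted p of 0.207. Nos1ap, an adaptor that binds the synthase, had -0.21 with an adjusted p of 0.251. Of 15 interneuron transcription factors, with a median of 0.19, 3 had an unadjusted p under 0.05, and DESeq2 and edgeR's exact test each called 1, Satb1. Satb1, a chromatin organiser, was at 120 and 111 CPM in APP and at 144 and 146 CPM in WT, with a log2 fold change of -0.32 and an adjusted p of 0.0665 by edgeR's quasi-likelihood test. The developmental factors Sp8 and Dlx2 had 0.72 and 0.53, with adjusted p of 0.477 and 0.688.

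**Figure D4:**
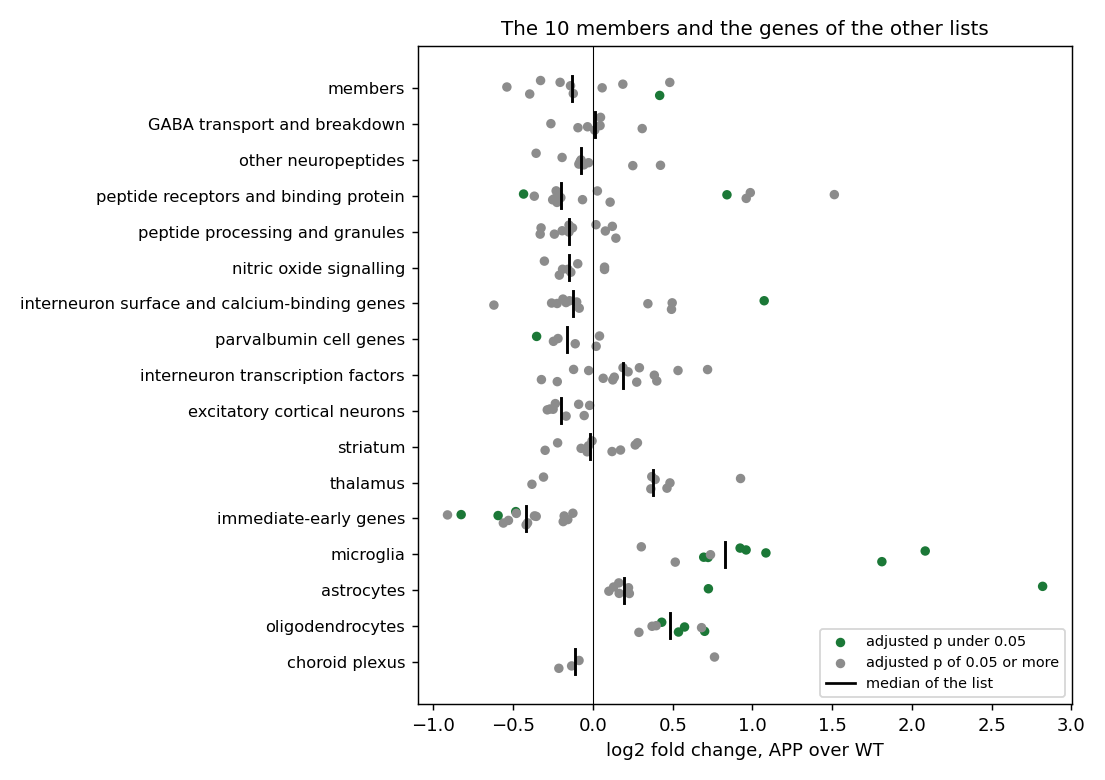
Log2 fold change of APP over WT for the 10 members and for the genes of 16 other lists, 1 point per gene. Green marks an adjusted p under 0.05 in edgeR's fit across all genes, vertical bars are list medians, and hypothalamic genes are left out because several had almost no counts in WT. The members spread from -0.54 to 0.48 around a median of -0.13, and the microglial list has the highest median of those drawn, 0.83.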

How the data were processed

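Cortex RNA of 2 APP and 2 WT mice, 12 months old, was depleted of ribosomal RNA, prepared by a strand-specific protocol and sequenced as paired reads. Per the paper's methods, the authors removed pairs matching ribosomal RNA, aligned the rest to Ensembl mouse RNA with FANSe2 at up to 7 mismatches, and kept transcripts with at least 10 reads. The Ensembl release is not given in the sources used here. The submitters' processing notes name CASAVA 1.8, edgeR and, for these mouse samples, hg19. The authors deposited raw counts per transcript, without normalization. The 4 deposited columns of the authors' own comparison hold a log fold change, a mean log CPM, a p-value and an FDR, and were not used, nor were 4 further columns of values per library. WT columns were matched to mice by number, and APP columns to their group only.

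Counts of 37539 transcripts were summed per gene through GENCODE M21 (GRCm38), which matched 98.2% of them, giving 18386 features of at least 10 counts. The plan was to sum by the deposited symbol, but 8274 transcripts had none. The members have the same 14 transcripts either way, and sums by symbol were added as an alternative. Counts were tested with edgeR 4.0.16 in R 4.3.3 (TMM, quasi-likelihood, no covariate, common dispersion 0.00778), with Benjamini-Hochberg adjustment over all features and a call at an adjusted p under 0.05. DESeq2 1.42.0 was an alternative, and the summaries were made in Python 3.11.15 (pandas 2.3.3, numpy 2.4.6). Library totals ran from 28525117 to 43881196 counts, the reads carry no molecular identifiers, and intervals cover the spread between these libraries. In a simulation with 200 changed genes among 18386, the main test called 65.7% of genes changed 1.5-fold, 92.5% of those changed 2-fold and 0.0385% of unchanged genes. The changed genes all had more than 200 counts and were all raised in APP. The simulated spread was set by a gene's level alone. These rates therefore do not extend to rarer genes such as Cort, to smaller changes or to genes that vary more than others of their level.

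The members and all gene lists were chosen with earlier results of these data known, so no p-value was adjusted over a list and no list was tested as a set. Genes named beside the members were those called in each list and the 2 others with the largest change among genes of at least 10 counts in every library, and the 3 genes nearest to the member with the smallest p. App was named as a check of the labels. Acan, Kcnc1, Syt2, Chodl, Lamp5, Cnr1, Erbb4, Satb1, Slc17a6, Lef1, Rgs16 and Junb fall outside this rule and were chosen after their values were seen. Alternatives were edgeR's exact and likelihood ratio tests, DESeq2, other scalings and filters, protein-coding transcripts only, leaving out each library in turn, and a required fold change of 1.5. The newer quasi-likelihood method and the sums by deposited symbol were chosen after seeing the data. Sequences came from RefSeq promoter windows (GRCm38.p6), and Crh had none in the table used.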

Additional observations from a re-analysis of the deposited data

How the results depend on the processing

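Against 209 features and 1 member called, edgeR's exact test called 557 and 4, its likelihood ratio test 599 and 4, and DESeq2 338 and 3. Protein-coding transcripts alone and sums by deposited symbol each called 2 members, and a fold change of at least 1.5 left 0. Leaving out 1 library gave 136 to 1707 features and 0 to 5 members, and the fits without APP-3 (1707) and without APP-4 (1196) rest the spread on the WT pair. No member changed direction under the other tests, scalings, filters and sums. With 1 library left out the log2 fold change ranged from -0.27 to 0.46 for Crh (-0.031 without APP-4 and -0.27 without WT-1), from -0.037 to 0.88 for Cort (-0.037 without APP-3), from -0.31 to 0.042 for Gad1 (0.042 without APP-3) and from -0.034 to 0.38 for Gad2 (-0.034 without APP-4), so the direction of these 4 was not stable, and for Nos1, Pvalb, Vip, Cck, Npy and Sst it was kept. Vip was called without APP-3, Cck without either APP library, and Pvalb without APP-3, APP-4 or WT-2. The cause was not tested. The filter on 10 counts removed no feature. edgeR's newer quasi-likelihood method called 230 features and Nos1 alone. Cort had 53 or fewer counts per library and Crh 104 or fewer, and the share of depth in their wide intervals was not tested. No paired analysis was made, since neither the labels nor the paper give a pairing of APP with WT mice.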

Other observations

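All 15 listed immediate-early genes, which neurons switch on after activity, had a log2 fold change below 0, where 9241 of 18386 features did. Their median was -0.42, and 3 fell past the threshold, where 0.12% of all features did. Arc, which acts at active synapses, was at 101 and 147 CPM in APP and at 213 and 226 CPM in WT, with a log2 fold change of -0.83 (SE 0.146, adjusted p = 0.0376, edgeR quasi-likelihood). Dusp1, a phosphatase, had -0.59 (adjusted p = 0.0404) and the transcription factor Egr1 -0.48 (adjusted p = 0.0469). Npas4, a neuronal activity factor, had -0.91 (adjusted p = 0.0926) and Egr2 -0.56 (adjusted p = 0.405). For 11 of the 15 both APP libraries were below both WT libraries, against 21.4% of all features. Without WT-2, Arc had an adjusted p of 0.0508, and the calls on Dusp1 and Egr1 were lost without either WT library (0.110 to 0.333). DESeq2 did not call Arc (adjusted p = 0.0947) but called Npas4, and edgeR's exact and likelihood ratio tests called Npas4 and Junb beside these 3.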
